A study of Homo sapiens with 26 samples.

Results

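The 10 genes described here are outputs and brakes of ERK signalling: the dual-specificity phosphatase genes DUSP4, DUSP5 and DUSP6, the Sprouty genes SPRY2 and SPRY4, the Sprouty-related genes SPRED1 and SPRED2, the ETS transcription factor genes ETV4 and ETV5, and PHLDA1. They were taken by gene symbol, and each had 1 row in both expression tables, which list 18165 and 17734 genes. All 10 passed the filter on low values (at least 1 FPKM in at least 2 libraries) in both tables. FPKM is the number of fragments scaled for transcript length and for the number of mapped fragments, so levels can be compared between genes. Poly(A) RNA of LoVo cells, an established human colorectal cancer line, was sequenced in 26 libraries of 13 groups, with 2 libraries per group. Lines carrying the PIK3CA mutations E545K or H1047R had been made from the LoVo cells with lentiviral vectors and stand beside the wild-type LoVo cells, called WT here. PIK3CA encodes the catalytic subunit of PI3-kinase.

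The first table holds 9 groups: E545K, H1047R and WT cells, each in 0.5 µM palbociclib, in medium conditioned by senescent cells, and in DMSO, the vehicle. Palbociclib inhibits the kinases CDK4 and CDK6 and was used to bring on senescence. The hours with palbociclib or DMSO were 72. The second table holds 4 groups: E545K and H1047R cells, each in 0.5 µM palbociclib with 4 µM erlotinib for 48 hours, and in 0.5 µM palbociclib alone. Erlotinib inhibits the EGF receptor kinase. Each mutant line of the palbociclib experiment was 1 clone (E545K 2# and H1047R 3#), so a difference between lines cannot be told apart from a difference between clones. The sources used here do not give the clones behind the conditioned medium and erlotinib libraries. Nor do they give the hours in conditioned medium, the cells that conditioned it, or how long the second table's cells had palbociclib by itself. One protocol sentence has control cells collected at 48 hours without saying which libraries are meant. The culture medium of all lines was DMEM, with 10% fetal bovine serum. No label says whether the 2 libraries of a group came from separate cultures, so p-values measure the spread between these libraries, which may be technical.

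ERK is the last kinase of the cascade that runs from receptor tyrosine kinases through RAS, RAF and MEK. Active ERK raises the transcription of genes whose products restrain the same cascade, so that mRNA levels of these genes are widely read as a measure of ERK output. DUSP phosphatases remove the activating phosphates from MAP kinases, Sprouty and SPRED proteins act higher up between the receptors, RAS and RAF, and ETV4 and ETV5 carry the signal on to further target genes. The data are mRNA levels, and no phosphorylation or protein was measured in the files used here. In bulk RNA, fewer cells with a transcript and less of it per cell cannot be told apart.

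Libraries were alike in size but not in profile. FPKM sums ran from 441643 to 524290 per library, 11453 to 12157 genes reached 1 FPKM, and ribosomal protein genes held 15.8% to 25.1% of the sum. The values used here are FPKM without counts, so read depth is unknown. The libraries of palbociclib-treated H1047R cells were the least alike of any group in both tables, with a correlation across genes of 0.9867 for the first table's pair and 0.9904 for the second's. The mean profile of WT cells in conditioned medium correlated at 0.9856 with that of H1047R cells in DMSO, against 0.9379 with that of WT cells in DMSO. The epithelial markers EPCAM, CDH1, KRT8, KRT18 and KRT19 stood at 45.5 FPKM or more in every library and the intestinal factor CDX2 at 18.7 FPKM or more, while CDX1 did not pass 1.01 FPKM and VIL1 did not pass 3.76 FPKM. Of 10 markers of leukocytes, endothelium and fibroblasts, 8 were listed in the first table, 9 were listed in the second, and 4 of them stayed under 1 FPKM in every library of each table. Their summed level was 39.00 to 54.79 FPKM over the first table's libraries and 39.26 to 71.45 FPKM over the second's. CD68 made up most of this sum with 24.1 to 68.9 FPKM, and PTPRC stayed at or under 1.55 FPKM, DCN at or under 0.04 FPKM and CD14 at or under 0.85 FPKM. Of the fibroblast genes, COL1A1 reached 3.67 FPKM and COL3A1 reached 19.64 FPKM.

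The 10 genes lie on 9 chromosomes, and RefSeq promoter windows of GRCh38.p14 were found for 6 of them: DUSP6, SPRY2, SPRY4, SPRED1, SPRED2 and PHLDA1. DUSP4, DUSP5, ETV4 and ETV5 had no entry. Windows of 250 bases before the annotated start were searched on both strands for the ETS core CCGGAA, the AP-1 site TGANTCA and the cyclic AMP response core TGACGT. These were present in 14.5%, 6.6% and 7.1% of 35116 promoter windows of the same length. Among 9 windows of the 6 genes, SPRY2 and PHLDA1 each had 1 ETS core in a window directly upstream of the gene, and no other match was found. Below are those windows and that of DUSP6, the gene whose level was higher with palbociclib than in DMSO in every line. Each is read 5′ to 3′ on the gene's own strand, which is the minus strand for all 3, and capitals mark the ETS core.
DUSP6, chr12:89352502-89352751, no match: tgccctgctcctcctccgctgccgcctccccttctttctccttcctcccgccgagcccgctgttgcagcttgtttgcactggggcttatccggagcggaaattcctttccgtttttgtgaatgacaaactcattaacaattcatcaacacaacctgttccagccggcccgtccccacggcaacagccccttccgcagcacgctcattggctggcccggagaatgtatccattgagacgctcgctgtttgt
SPRY2, chr13:80341127-80341376, ETS core on the gene's strand at -142 to -137: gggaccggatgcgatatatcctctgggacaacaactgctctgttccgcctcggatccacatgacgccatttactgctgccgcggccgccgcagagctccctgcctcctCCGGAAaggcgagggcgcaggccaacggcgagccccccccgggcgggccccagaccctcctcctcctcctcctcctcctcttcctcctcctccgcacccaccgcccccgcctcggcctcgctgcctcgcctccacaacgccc
PHLDA1, chr12:76031777-76032026, ETS core on the opposite strand at -89 to -84: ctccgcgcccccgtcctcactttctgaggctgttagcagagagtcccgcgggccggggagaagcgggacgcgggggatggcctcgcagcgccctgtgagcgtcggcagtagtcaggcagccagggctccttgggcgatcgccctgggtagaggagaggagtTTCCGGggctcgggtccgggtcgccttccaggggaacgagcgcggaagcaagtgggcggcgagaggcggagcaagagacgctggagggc
A match describes the letters of a window and not binding, which was not measured here.

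Levels differed widely among the 10 genes and among the 9 groups of the first table. DUSP5 spanned the widest range, 13.3-fold between its highest and its lowest group mean. DUSP6, SPRY4, ETV4, PHLDA1 and DUSP4 spanned 3.08-fold, 2.88-fold, 2.73-fold, 2.67-fold and 2.58-fold. SPRED2, SPRED1, SPRY2 and ETV5 spanned 1.76-fold, 1.45-fold, 1.44-fold and 1.21-fold. The plot of levels in the first table shows every library.

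**Figure D1:**
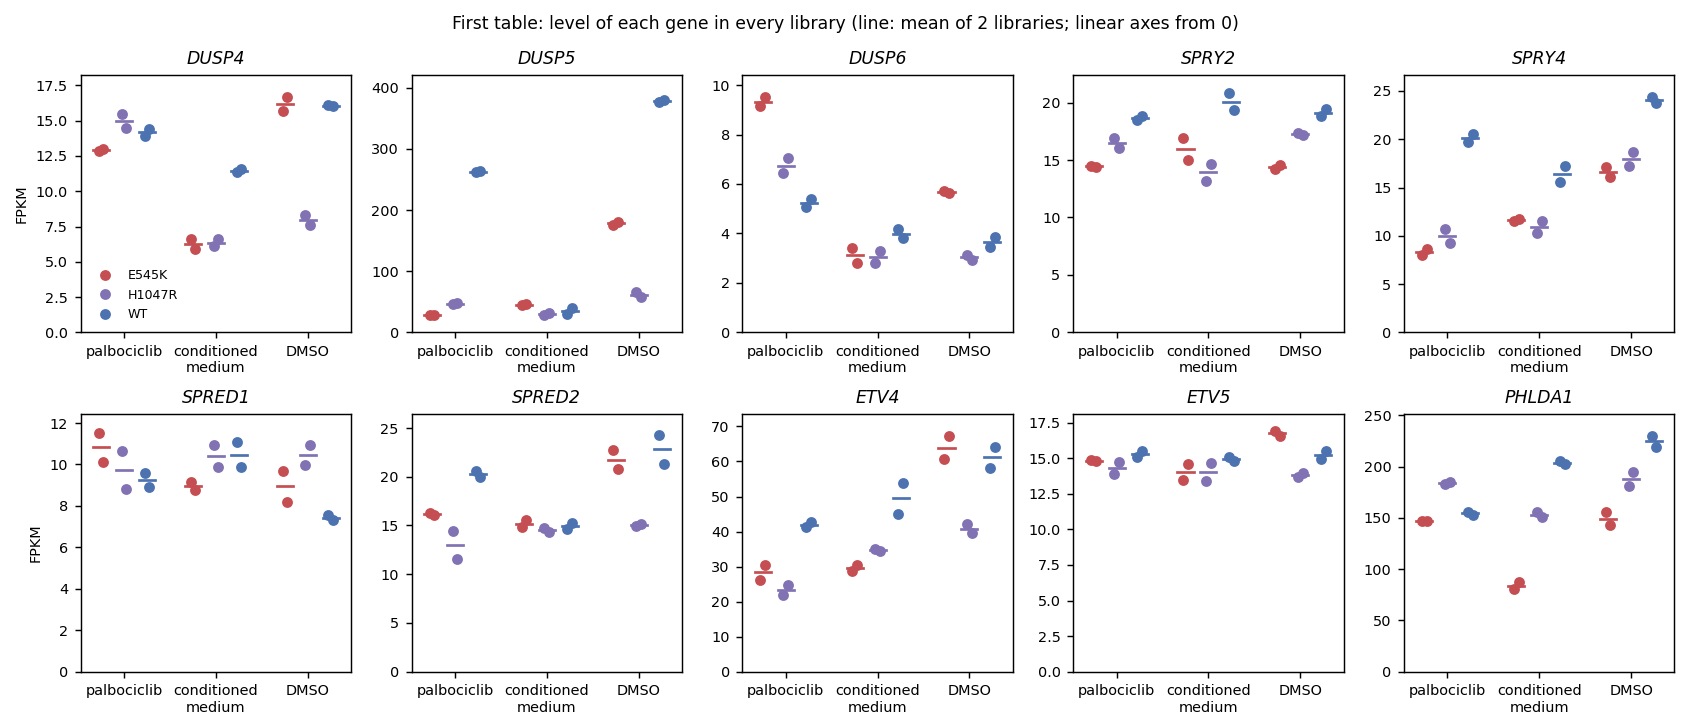
Level of each gene in FPKM (linear axes from 0) in every library of the first table, by treatment and line, with points for libraries and lines for the mean of 2. DUSP5 is highest in WT cells in DMSO and in palbociclib and low in all 3 lines in conditioned medium, whereas ETV5 stays between 13.4 and 16.9 FPKM throughout.

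DUSP5 (chromosome 10, 110497907 to 110511533, GRCh38.p14, plus strand) encodes a nuclear phosphatase specific for ERK. In palbociclib it had 28.7 and 28.2 FPKM in E545K cells, 46.6 and 47.7 FPKM in H1047R cells and 262 and 263 FPKM in WT cells. In conditioned medium it had 44.2 and 46.0 FPKM in E545K cells, 29.1 and 31.3 FPKM in H1047R cells and 29.9 and 40.4 FPKM in WT cells. In DMSO it had 176 and 181 FPKM in E545K cells, 65.2 and 58.0 FPKM in H1047R cells and 376 and 380.0 FPKM in WT cells. The WT libraries in DMSO lay above every other library, and in the order of group means only WT and H1047R cells in conditioned medium overlapped.

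DUSP6 (chromosome 12, 89347235 to 89352501, minus strand) encodes the cytoplasmic phosphatase of ERK and is one of the transcripts most often used to read ERK activity. It was far less abundant than DUSP5. In palbociclib it had 9.17 and 9.50 FPKM in E545K cells, 6.43 and 7.04 FPKM in H1047R cells and 5.05 and 5.41 FPKM in WT cells. Conditioned medium left it at 3.41 and 2.81 FPKM in E545K cells, 2.79 and 3.31 FPKM in H1047R cells and 4.17 and 3.80 FPKM in WT cells. In DMSO it had 5.70 and 5.63 FPKM in E545K cells, 3.13 and 2.93 FPKM in H1047R cells and 3.46 and 3.86 FPKM in WT cells. Within each line both palbociclib libraries lay above both DMSO libraries. An unnamed transcript, AC024909.2, overlaps DUSP6 on the other strand, and the strand setting of the counting is not given in the sources used here, so reads of the 2 cannot be told apart.

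DUSP4 (chromosome 8, 29333064 to 29350684, minus strand) encodes a nuclear phosphatase that acts on ERK and on other MAP kinases. In palbociclib it had 12.8 and 13.0 FPKM in E545K cells, 15.5 and 14.5 FPKM in H1047R cells and 13.9 and 14.4 FPKM in WT cells. In conditioned medium it had 6.65 and 5.94 FPKM in E545K cells, 6.09 and 6.61 FPKM in H1047R cells and 11.3 and 11.6 FPKM in WT cells. In DMSO it had 15.7 and 16.7 FPKM in E545K cells, 8.29 and 7.63 FPKM in H1047R cells and 16.1 and 16.0 FPKM in WT cells. The low groups were the H1047R line outside palbociclib and the E545K line in conditioned medium, and the libraries of E545K and WT cells in DMSO overlapped.

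SPRY4 (chromosome 5, 142310430 to 142325021, minus strand) encodes a Sprouty protein, a brake between receptor tyrosine kinases and RAF. In palbociclib it had 8.03 and 8.68 FPKM in E545K cells, 10.7 and 9.27 FPKM in H1047R cells and 19.7 and 20.5 FPKM in WT cells. Conditioned medium left it at 11.6 and 11.7 FPKM in E545K cells, 10.3 and 11.5 FPKM in H1047R cells and 15.6 and 17.3 FPKM in WT cells. In DMSO it had 17.1 and 16.1 FPKM in E545K cells, 17.2 and 18.6 FPKM in H1047R cells and 24.4 and 23.8 FPKM in WT cells. In every line the libraries of both treatments lay below those of DMSO. The antisense gene SPRY4-AS1 overlaps it, with the same limit as for DUSP6. SPRY2 (chromosome 13, 80335976 to 80341126, minus strand), its relative, kept to a narrow band. Its lowest group mean was 13.9 ± 1.03 FPKM in H1047R cells and its highest 20.1 ± 1.05 FPKM in WT cells, both in conditioned medium (SD, n = 2 each), and 4 of 8 neighbours in the order of means overlapped.

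SPRED1 (chromosome 15, 38252836 to 38357249, plus strand) and SPRED2 (chromosome 2, 65307175 to 65432599, minus strand) encode Sprouty-related proteins, and SPRED1 brings neurofibromin to the membrane to switch off RAS. SPRED1 was highest in palbociclib-treated E545K cells at 10.8 ± 1.00 FPKM and lowest in WT cells in DMSO at 7.44 ± 0.17 FPKM (SD, n = 2 each). Of its 8 neighbours in the order of means 7 overlapped, so that the groups other than WT in DMSO formed a continuum. SPRED2 had 22.7 and 20.8 FPKM in E545K cells, 14.9 and 15.1 FPKM in H1047R cells and 24.3 and 21.3 FPKM in WT cells in DMSO. The 3 DMSO groups therefore split, with H1047R below the other two. In conditioned medium all 6 libraries lay at 14.3 to 15.5 FPKM, with those of WT cells overlapping each mutant line and the E545K libraries above the H1047R libraries.

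ETV4 (chromosome 17, 43527846 to 43546340, minus strand) and ETV5 (chromosome 3, 186046314 to 186109089, minus strand) encode ETS factors of the PEA3 group, whose mRNA rises with ERK activity in many cells. In palbociclib ETV4 had 26.2 and 30.5 FPKM in E545K cells, 21.9 and 24.9 FPKM in H1047R cells and 41.2 and 42.7 FPKM in WT cells. In conditioned medium it had 28.6 and 30.6 FPKM in E545K cells, 35.1 and 34.4 FPKM in H1047R cells and 45.1 and 54.0 FPKM in WT cells. In DMSO it had 60.6 and 67.2 FPKM in E545K cells, 42.2 and 39.5 FPKM in H1047R cells and 58.2 and 64.1 FPKM in WT cells. As for SPRY4, the palbociclib libraries lay below the DMSO libraries in each line. ETV5 had its highest mean, 16.8 ± 0.24 FPKM, in E545K cells and its lowest, 13.8 ± 0.18 FPKM, in H1047R cells, both in DMSO (SD, n = 2 each). DHX8 overlaps ETV4 and ETV5-AS1 overlaps ETV5 on the other strand.

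PHLDA1 (chromosome 12, 76025447 to 76031776, minus strand) encodes a pleckstrin homology-like protein that growth factors induce. In palbociclib it had 147 and 147 FPKM in E545K cells, 183 and 185 FPKM in H1047R cells and 156 and 153 FPKM in WT cells. Conditioned medium left it at 80.8 and 87.2 FPKM in E545K cells, 156 and 151 FPKM in H1047R cells and 205 and 202 FPKM in WT cells. In DMSO it had 155 and 143 FPKM in E545K cells, 181 and 195 FPKM in H1047R cells and 229.8 and 219 FPKM in WT cells. E545K cells in conditioned medium stood lowest, apart from all other libraries. AC011611.3 and AC011611.4 overlap PHLDA1 on the other strand.

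Differences between groups were tested with limma on log2(FPKM + 1), with Benjamini-Hochberg adjustment over all genes tested (12607 and 12463 for the 2 tables). A gene is said to have risen or fallen where the adjusted p was under 0.05. A log2 change on this scale understates the change of low genes. In 7 of the 15 comparisons the median of all genes lay more than 0.1 from 0. There a relative log2 change, the change less that median, is given for the genes that passed, while the test is of the change from 0. Of the 150 results for the 10 genes, 70 passed the test.

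The lines were first compared in the vehicle, DMSO. There DUSP5 was lower in both mutant lines than in WT cells, at 178 ± 3.87 FPKM in E545K cells and 61.6 ± 5.12 FPKM in H1047R cells, against 378 ± 2.51 FPKM in WT cells (SD, n = 2 each). SPRY4 and PHLDA1 were also lower in both. DUSP4, SPRED2 and ETV4 were lower in H1047R cells, SPRY2 was lower and DUSP6 higher in E545K cells, and SPRED1 was higher in H1047R cells. In E545K cells 1 of 10 genes rose and 4 fell, when 58.8% of all genes were called (48.4% higher and 10.4% lower). In H1047R cells 1 rose and 6 fell, when 67.4% were called (49.9% higher and 17.5% lower). The median log2 change of the 10 genes was -0.03 in E545K cells and -0.33 in H1047R cells, where that of all genes was 0.25 and 0.26.

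The split depends on the scaling between libraries. After median-centring 0 of the 10 genes rose and 6 fell in E545K cells, with 21.1% of all genes higher and 27.0% lower. In H1047R cells 0 rose and 9 fell under the same scaling, with 26.3% higher and 36.9% lower. After quantile normalization the counts were 0 and 6 in E545K cells, with 25.1% of all genes higher and 22.3% lower, and 0 and 8 in H1047R cells, with 32.1% higher and 30.3% lower.

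For DUSP5 the log2 change was -1.08 (SE 0.10, adjusted p = 6.7e-07) in E545K cells and -2.60 (SE 0.10, adjusted p = 8.66e-11) in H1047R cells. Only 0.83% and 0.08% of all genes had lower changes in these comparisons. The relative log2 changes were -1.33 and -2.86. SPRY4 changed by -0.51 (SE 0.09, adjusted p = 0.000138) in E545K cells and -0.41 (SE 0.09, adjusted p = 0.000656) in H1047R cells. PHLDA1 changed by -0.59 (SE 0.06, adjusted p = 2.97e-06) in E545K cells and -0.26 (SE 0.06, adjusted p = 0.00268) in H1047R cells, and the second call was lost under quantile normalization (adjusted p = 0.728) and on the TPM scale (adjusted p = 0.108). The relative log2 changes were -0.76 and -0.67 for SPRY4 and -0.84 and -0.52 for PHLDA1.

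On the FPKM values as given, the lines differed from WT cells in different ways in the other genes. DUSP4 in H1047R cells fell by 0.93 on the log2 scale (SE 0.08, adjusted p = 8.47e-08, relative -1.19) while in E545K cells its change was 0.01 (SE 0.08, adjusted p = 0.903). This last value turned to -0.22 under quantile normalization (adjusted p = 0.0321) and to -0.28 with median-centring (adjusted p = 0.0104). DUSP6 in E545K cells rose by 0.52 (SE 0.10, adjusted p = 0.000424), relative 0.27, and lost its call under quantile normalization (adjusted p = 0.312) and median-centring (adjusted p = 0.104). SPRY2 changed by -0.39 (SE 0.07, adjusted p = 0.000476) in E545K cells, relative -0.64. SPRED2 and ETV4 changed by -0.57 (SE 0.09, adjusted p = 7.29e-05) and -0.57 (SE 0.10, adjusted p = 0.000126) in H1047R cells, relative -0.83 and -0.83. ETV5 did not pass in either line, at 0.13 in E545K cells and -0.13 in H1047R cells (adjusted p = 0.122 and 0.109). It passed as higher in E545K cells on the TPM scale (0.23, adjusted p = 0.0159). In H1047R cells it passed as lower under quantile normalization (-0.39, adjusted p = 0.000393) and median-centring (-0.48, adjusted p = 0.000108). Under both of these scalings DUSP6 (-0.68 and -0.55) and SPRY2 (-0.34 and -0.49) passed as lower in H1047R cells, and SPRED2 (-0.26 and -0.36) in E545K cells. SPRED1 in H1047R cells rose by 0.44 (SE 0.11, adjusted p = 0.00195), relative 0.18, and lost its call under quantile normalization (adjusted p = 0.511) and median-centring (adjusted p = 0.385).

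The lines were also compared within each treatment, without the WT libraries in DMSO, a choice made after the data had been seen. In palbociclib DUSP5 was again lower in both mutant lines, by -3.16 in E545K cells (SE 0.10, adjusted p = 6.16e-12) and -2.45 in H1047R cells (SE 0.10, adjusted p = 1.69e-10). In conditioned medium it was higher in E545K cells than in WT cells by 0.37 (SE 0.10, adjusted p = 0.0114), and the change in H1047R cells was -0.20 (adjusted p = 0.285). SPRY4 was lower in both mutant lines under both treatments: by -1.18 and -0.95 in palbociclib for E545K and H1047R cells (adjusted p = 2.73e-08 and 2.66e-07), and by -0.46 and -0.55 in conditioned medium (adjusted p = 0.000718 and 0.000773). ETV4 was lower there too, by -0.55 and -0.82 in palbociclib (adjusted p = 0.000178 and 4.83e-06) and by -0.72 and -0.49 in conditioned medium (adjusted p = 5.53e-05 and 0.00569). PHLDA1 was lower in conditioned medium by -1.27 in E545K cells and -0.41 in H1047R cells (adjusted p = 1.66e-09 and 0.000875), while in palbociclib it was -0.07 in E545K cells (adjusted p = 0.349) and higher by 0.25 in H1047R cells (adjusted p = 0.00377). DUSP4 was lower in conditioned medium by -0.77 in E545K cells and -0.76 in H1047R cells (adjusted p = 2.42e-06 and 1.68e-05) and did not pass in palbociclib. DUSP6 was higher in palbociclib by 0.73 in E545K cells and 0.31 in H1047R cells (adjusted p = 1.37e-05 and 0.013), and in conditioned medium it was lower by -0.28 in E545K cells (adjusted p = 0.0396). SPRY2 was lower in E545K cells by -0.35 in palbociclib and -0.31 in conditioned medium (adjusted p = 0.000902 and 0.00506), and in H1047R cells by -0.50 in conditioned medium (adjusted p = 0.000622). SPRED2 was lower in palbociclib by -0.31 in E545K cells and -0.61 in H1047R cells (adjusted p = 0.0083 and 4.26e-05), and SPRED1 and ETV5 passed in none of these comparisons. In palbociclib 65.1% of all genes were called for E545K cells (45.7% higher and 19.4% lower), with an all-gene median of 0.20. For H1047R cells 62.5% were called there (38.5% higher and 24.1% lower), with a median of 0.09. In conditioned medium the shares were 33.9% (18.1% higher and 15.8% lower) and 8.38% (3.06% higher and 5.31% lower). The changes within treatments are not relative to these medians. They were not refitted under the other scalings or with libraries left out.

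**Figure D2:**
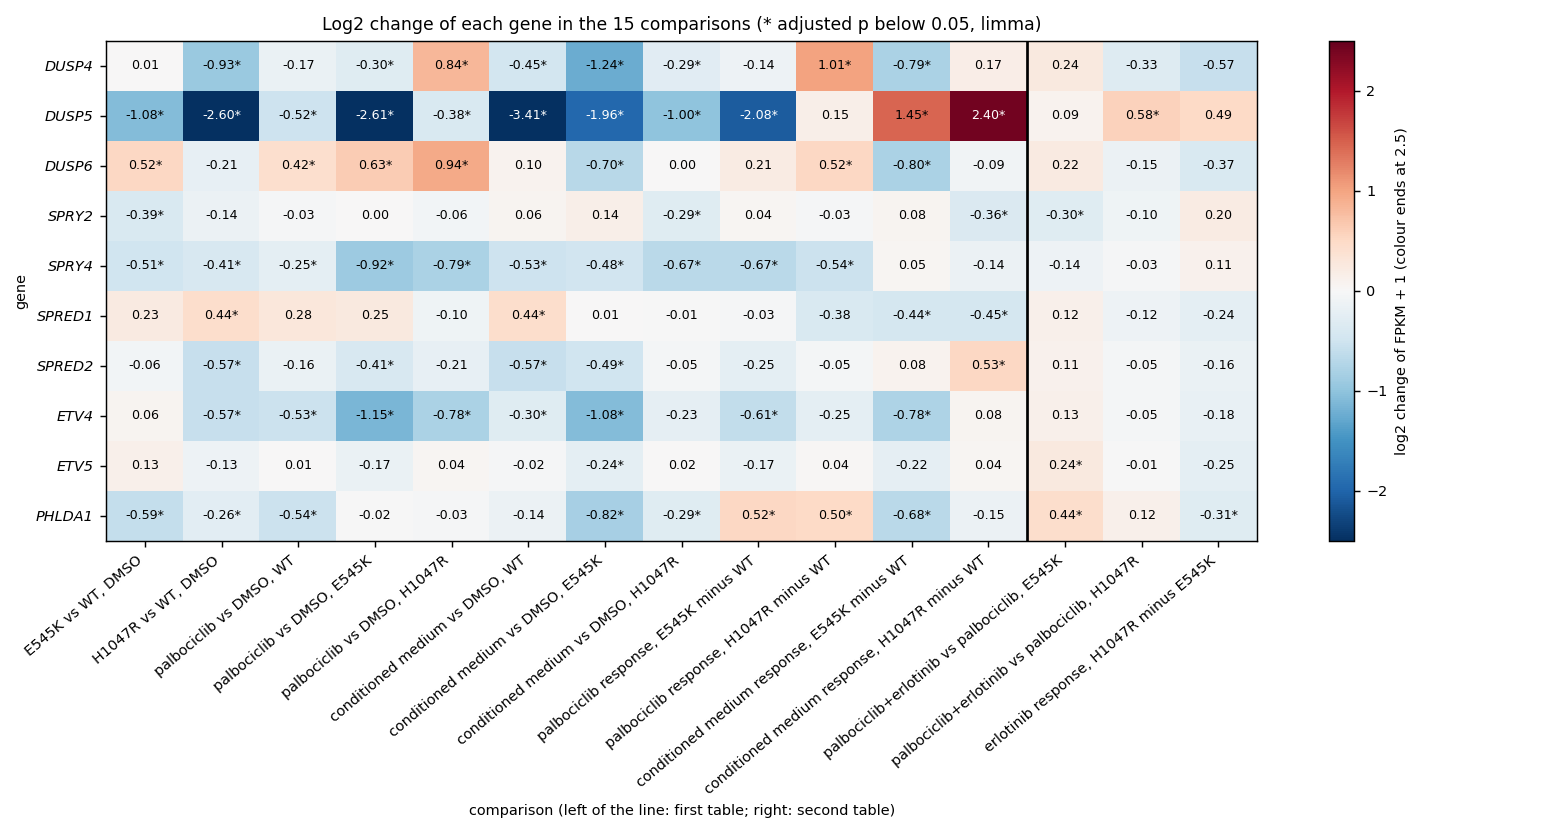
Log2 change on the log2(FPKM + 1) scale of each gene in all 15 comparisons, from the limma fits, with an asterisk where the adjusted p was under 0.05. SPRY4 and ETV4 are lower and DUSP6 higher with palbociclib in all 3 lines, and the column for conditioned medium in E545K cells holds 8 called decreases. The call of DUSP6 in WT cells does not hold under quantile normalization or median-centring.

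With palbociclib, SPRY4, ETV4 and DUSP5 fell and DUSP6 rose in all 3 lines, but in WT cells DUSP6 kept its call neither under quantile normalization nor with median-centring, and SPRY4 lost its call there on the TPM scale. DUSP6 reached 9.34 ± 0.23 FPKM with palbociclib in E545K cells, against 5.67 ± 0.05 FPKM in DMSO, and 6.73 ± 0.43 FPKM in H1047R cells, against 3.03 ± 0.14 FPKM in DMSO (SD, n = 2 each). ETV4 fell to 28.4 ± 3.08 FPKM in E545K cells, against 63.9 ± 4.67 FPKM in DMSO, and to 23.4 ± 2.1 FPKM in H1047R cells, against 40.9 ± 1.94 FPKM in DMSO. DUSP4 rose in H1047R cells and fell in E545K cells, and PHLDA1 fell in WT cells. In E545K cells 1 of 10 genes rose and 5 fell, when 52.2% of all genes were called (32.9% higher and 19.3% lower). In H1047R cells 2 rose and 3 fell, when 39.3% were called (19.5% higher and 19.8% lower). In WT cells 1 rose and 4 fell, when 34.0% were called (27.2% higher and 6.77% lower). After median-centring the counts were 1 and 6 in E545K cells, 2 and 3 in H1047R cells and 0 and 6 in WT cells, with 22.8%, 20.5% and 11.4% of all genes higher and 29.1%, 18.5% and 14.8% lower.

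The phosphatase genes took 3 courses. DUSP5 changed by -2.61 (SE 0.10, adjusted p = 1.47e-10) in E545K cells, where 0.04% of all genes had lower changes. In WT cells it changed by -0.52 (SE 0.10, adjusted p = 0.00124), relative -0.66. In H1047R cells, where DUSP5 was already low in DMSO, its change was -0.38 (SE 0.10, adjusted p = 0.00938). This call was lost when only the H1047R groups were fitted (adjusted p = 0.144) and without the first DMSO library of that line (adjusted p = 0.0656). DUSP6 rose by 0.63 (SE 0.10, adjusted p = 9.32e-05) in E545K cells, 0.94 (SE 0.10, adjusted p = 6.44e-06) in H1047R cells and 0.42 (SE 0.10, adjusted p = 0.00474) in WT cells. Its call in WT cells (relative log2 change 0.28) was lost under quantile normalization (adjusted p = 0.271), with median-centring (adjusted p = 0.098) and without the first WT library in DMSO (adjusted p = 0.0539). DUSP4 changed by 0.84 (SE 0.08, adjusted p = 1.71e-06) in H1047R cells, -0.30 (SE 0.08, adjusted p = 0.00393) in E545K cells and -0.17 (SE 0.08, adjusted p = 0.105) in WT cells, the last of these not passing the test. In WT cells DUSP4 passed as lower under quantile normalization (adjusted p = 0.0271) and with median-centring (adjusted p = 0.00771). It also passed there when only the WT groups were fitted (adjusted p = 0.0328). The rise in H1047R cells brought DUSP4 to 15.0 ± 0.71 FPKM, against 7.96 ± 0.47 FPKM in DMSO (SD, n = 2 each). These palbociclib libraries lay above those of E545K and WT cells with palbociclib, and below those of E545K and WT cells in DMSO.

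Among the Sprouty and SPRED genes, SPRY4 passed the test in all 3 lines. It changed by -0.92 (SE 0.09, adjusted p = 7.78e-07) in E545K cells, -0.79 (SE 0.09, adjusted p = 8.12e-06) in H1047R cells and -0.25 (SE 0.09, adjusted p = 0.0358) in WT cells, the last relative -0.39. The call in WT cells was lost on the TPM scale (adjusted p = 0.143) and when any of the 4 WT libraries was left out (adjusted p = 0.087 to 0.175). SPRED2 changed by -0.41 (SE 0.09, adjusted p = 0.0019) in E545K cells, and in the other lines it did not pass. In WT cells it passed as lower under quantile normalization (-0.23, adjusted p = 0.0462) and median-centring (-0.32, adjusted p = 0.00736). Its change in H1047R cells, -0.21, moved between -0.36 and -0.05 when single libraries were left out. For SPRY2 the changes ran from -0.06 in H1047R cells to 0.00 in E545K cells, with 95% limits of the fit drawn in the plot of responses, and none passed. SPRED1 changed by 0.25 (SE 0.11, adjusted p = 0.0593) in E545K cells, -0.10 (SE 0.11, adjusted p = 0.478) in H1047R cells and 0.28 (SE 0.11, adjusted p = 0.0565) in WT cells, none of which passed. When only the compared groups were fitted it passed in E545K and WT cells (adjusted p = 0.0469 and 0.0114), and it passed in E545K cells without the first DMSO or the second palbociclib library (adjusted p = 0.0329 and 0.0492).

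ETV4 and ETV5 parted. ETV4 changed by -1.15 (SE 0.10, adjusted p = 3.67e-07) in E545K cells, -0.78 (SE 0.10, adjusted p = 3.37e-05) in H1047R cells and -0.53 (SE 0.10, adjusted p = 0.000935) in WT cells, the last relative -0.67. ETV5 did not pass in any line, with changes of -0.17 in E545K cells, 0.04 in H1047R cells and 0.01 in WT cells (SE 0.07 each). In E545K cells ETV5 passed under median-centring, at -0.30 (adjusted p = 0.00546), under quantile normalization (adjusted p = 0.00803) and without the filter on low values (adjusted p = 0.0356). PHLDA1 changed by -0.54 (SE 0.06, adjusted p = 3.01e-05), relative -0.67, in WT cells, to 155 ± 2.06 FPKM with palbociclib, against 225 ± 7.38 FPKM in DMSO (SD, n = 2 each). In E545K and H1047R cells its changes were -0.02 and -0.03 (adjusted p = 0.827 and 0.705).

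The H1047R values rest on the pair of libraries that differed most. Leaving out each library of this comparison in turn gave 0.78 to 0.89 for DUSP4, 0.88 to 1.00 for DUSP6, -0.88 to -0.70 for SPRY4 and -0.87 to -0.69 for ETV4. All 4 genes kept their calls in these refits. The summed level of 8 epithelial markers, most of it keratins, moved with palbociclib in the mutant lines: it was 12598 to 13026 FPKM in E545K cells with palbociclib, against 8059 to 8611 FPKM in DMSO, and 12725 to 16685 FPKM in H1047R cells with palbociclib, against 7329 to 8340 FPKM in DMSO. Its part in the changes above was not tested.

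**Figure D3:**
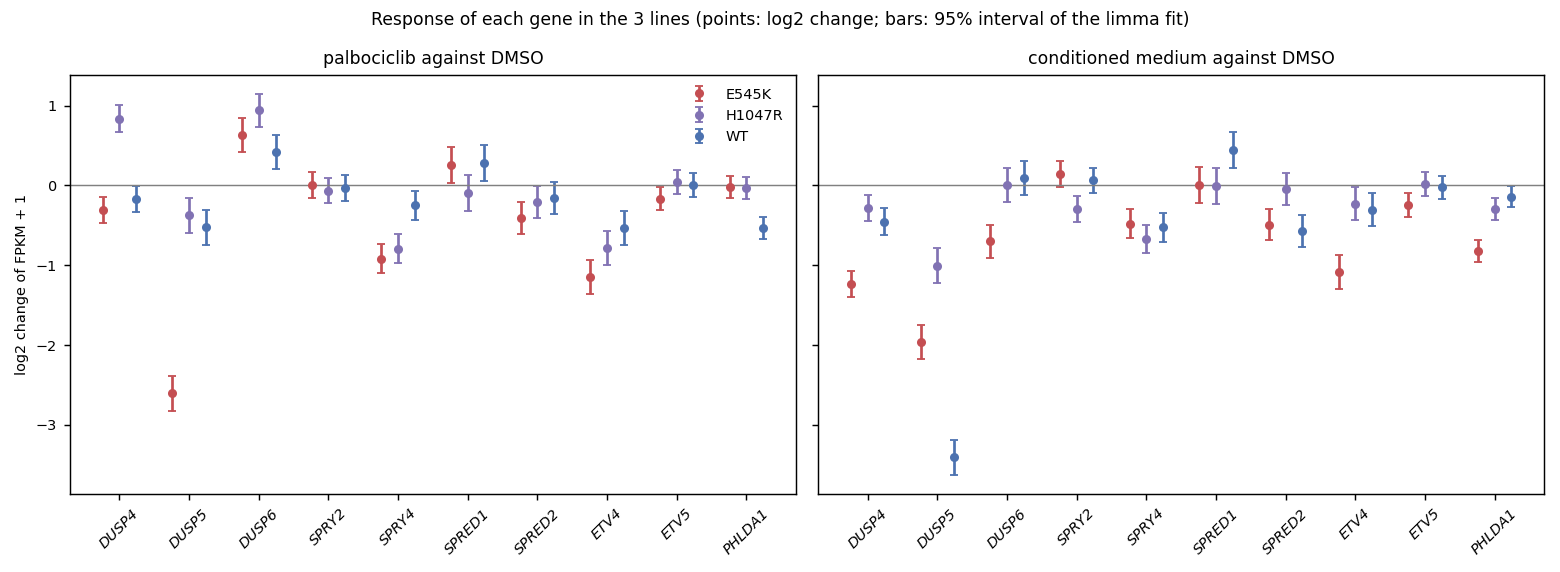
Log2 change of each gene with palbociclib (left) and with conditioned medium (right) against DMSO in E545K, H1047R and WT cells, with bars for the 95% interval of the limma fit. With palbociclib the intervals of DUSP6 lie above 0 in all 3 lines and those of SPRY4 and ETV4 below 0, and DUSP4 stands apart in H1047R cells.

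Whether the mutant lines responded to palbociclib differently from WT cells was tested as the response of the mutant line minus the response of WT cells. Both responses of a pair use the same WT libraries, so the 2 mutant lines are not independent here. For E545K minus WT, 1 of 10 genes was higher and 3 were lower, when 25.7% of all genes were called (10.9% higher and 14.7% lower). For H1047R minus WT, 3 were higher and 1 was lower, when 22.6% were called (5.16% higher and 17.4% lower). After median-centring these counts were the same, 1 and 3 in E545K cells and 3 and 1 in H1047R cells, with 12.0% and 10.4% of all genes higher and 12.9% and 5.87% lower.

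SPRY4 fell further in both mutant lines than in WT cells, by -0.67 (SE 0.12, adjusted p = 0.00117) in E545K cells and -0.54 (SE 0.12, adjusted p = 0.00786) in H1047R cells, the last relative -0.38. PHLDA1, which passed the test in WT cells and in neither mutant line, gave differences of 0.52 (SE 0.09, adjusted p = 0.000973) and 0.50 (SE 0.09, adjusted p = 0.00272), the second relative 0.67. DUSP5 fell further in E545K cells by -2.08 (SE 0.14, adjusted p = 5.38e-07), and the difference for H1047R cells was 0.15 (SE 0.14, adjusted p = 0.459). ETV4 fell further in E545K cells by -0.61 (SE 0.14, adjusted p = 0.00508), and the difference for H1047R cells was -0.25 (SE 0.14, adjusted p = 0.199). DUSP4 stood out in H1047R cells with 1.01 (SE 0.11, adjusted p = 0.0001), relative 1.17, higher than 99.52% of all genes. DUSP6 gave 0.52 (SE 0.14, adjusted p = 0.0185) in H1047R cells, relative 0.69. When only the 4 groups of this contrast were fitted, DUSP6, SPRY4 and PHLDA1 lost their calls for H1047R (adjusted p = 0.0913, 0.0689 and 0.058), and DUSP4 kept its call. PHLDA1 also lost it under quantile normalization (adjusted p = 0.139). DUSP6 also lost its call without the second WT or the second H1047R library in DMSO and without the first WT library in palbociclib (adjusted p = 0.0778, 0.062 and 0.0753).

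In medium conditioned by senescent cells, DUSP5 and SPRY4 fell in all 3 lines, and no gene of the set rose in either mutant line. The reference is the DMSO groups, and no group was in medium conditioned by cells that were not senescent. What senescent cells released therefore cannot be told apart from other differences in medium or hours. DUSP5 fell to 35.1 ± 7.40 FPKM in WT cells, against 378 ± 2.51 FPKM in DMSO (SD, n = 2 each), a change lower than those of all but 0.02% of genes. In E545K cells 8 of the 10 genes fell, all but SPRY2 and SPRED1, when 57.3% of all genes were called (32.4% higher and 24.9% lower). In H1047R cells 0 rose and 5 fell (DUSP4, DUSP5, SPRY2, SPRY4 and PHLDA1), when 14.6% were called (8.65% higher and 5.97% lower). In WT cells 1 rose and 5 fell, when 70.5% were called (51.9% higher and 18.6% lower). The median change of the 10 genes was -0.60 in E545K cells, -0.26 in H1047R cells and -0.22 in WT cells, where that of all genes was 0.05, 0.01 and 0.29. After median-centring the counts were 0 and 8 in E545K cells, 0 and 5 in H1047R cells and 0 and 8 in WT cells, with 24.9%, 7.04% and 30.1% of all genes higher and 33.1%, 5.73% and 35.9% lower.

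Among the phosphatases, DUSP5 changed by -1.96 (SE 0.10, adjusted p = 1.77e-09) in E545K cells, -1.004 (SE 0.10, adjusted p = 5.93e-05) in H1047R cells and -3.41 (SE 0.10, adjusted p = 6.35e-12) in WT cells, the last relative -3.70. DUSP4 changed by -1.24 (SE 0.08, adjusted p = 9.7e-09) in E545K cells, -0.29 (SE 0.08, adjusted p = 0.0227) in H1047R cells and -0.45 (SE 0.08, adjusted p = 9.62e-05) in WT cells, the last relative -0.74. Its fall in E545K cells, to 6.29 ± 0.50 FPKM against 16.2 ± 0.69 FPKM in DMSO (SD, n = 2 each), was larger than that of all but 1.48% of genes. DUSP6, which rose with palbociclib in all lines, instead fell with conditioned medium in E545K cells by -0.70 (SE 0.10, adjusted p = 2.79e-05). Its changes in H1047R and WT cells were 0.00 and 0.10 (adjusted p = 0.982 and 0.39), and the WT value turned to -0.38 under quantile normalization (adjusted p = 0.00858).

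SPRY4 changed by -0.48 (SE 0.09, adjusted p = 0.000216) in E545K cells, -0.67 (SE 0.09, adjusted p = 0.000287) in H1047R cells and -0.53 (SE 0.09, adjusted p = 5.89e-05) in WT cells, the last relative -0.82. In H1047R cells only 0.80% of all genes had lower changes. SPRY2 changed by -0.29 (SE 0.07, adjusted p = 0.0173) in H1047R cells. It did not pass in E545K cells (0.14) or in WT cells (0.06, turning to -0.28 with an adjusted p of 0.00742 after median-centring). SPRED2 changed by -0.49 (SE 0.09, adjusted p = 0.000369) in E545K cells and -0.57 (SE 0.09, adjusted p = 5.79e-05), relative -0.87, in WT cells, and by -0.05 in H1047R cells, where it was low already. SPRED1 rose in WT cells by 0.44 (SE 0.11, adjusted p = 0.00179), relative 0.15, and lost that call under quantile normalization (adjusted p = 0.453) and median-centring (adjusted p = 0.352).

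ETV4 changed by -1.08 (SE 0.10, adjusted p = 3.75e-07) in E545K cells and -0.30 (SE 0.10, adjusted p = 0.0129) in WT cells, the last relative -0.59. The WT call was lost without the second WT library in DMSO (adjusted p = 0.112), without the first in conditioned medium (adjusted p = 0.179) and on the TPM scale (adjusted p = 0.0588). In H1047R cells ETV4 changed by -0.23 (SE 0.10, adjusted p = 0.142) and did not pass. ETV5 changed by -0.24 (SE 0.07, adjusted p = 0.00786) in E545K cells, and this call was lost without the first conditioned medium library (adjusted p = 0.0892). In WT cells ETV5 changed by -0.02 and passed as lower under quantile normalization (-0.29, adjusted p = 0.00318) and median-centring (-0.36, adjusted p = 0.000938). PHLDA1 changed by -0.82 (SE 0.06, adjusted p = 8.64e-08) in E545K cells and -0.29 (SE 0.06, adjusted p = 0.00792) in H1047R cells, and by -0.14 in WT cells (adjusted p = 0.0656), the last relative -0.43. Under other settings the WT change of PHLDA1 ran from -0.48 to 0.00. It passed with median-centring (adjusted p = 3.16e-05) and when only the WT groups were fitted (adjusted p = 0.0319). Of the 5 H1047R calls, DUSP5 and SPRY4 held when only the H1047R groups were fitted, and DUSP4, SPRY2 and PHLDA1 did not (adjusted p = 0.161, 0.112 and 0.0725). Summed markers of other cell types were at 39.00 to 40.64 FPKM in E545K cells in conditioned medium, against 54.23 to 54.32 FPKM in DMSO, and their part in these changes was not tested. Within that list COL3A1 stood at 1.37 FPKM in E545K cells, 11.9 FPKM in H1047R cells and 18.5 FPKM in WT cells in conditioned medium, against 3.31 FPKM, 7.84 FPKM and 3.47 FPKM in DMSO (log2 change -0.86, 0.54 and 2.12).

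Set against the WT response, the E545K response to conditioned medium differed in 6 genes, 1 higher and 5 lower, when 47.1% of all genes were called (10.0% higher and 37.1% lower). DUSP5 fell less than in WT cells, by 1.45 (SE 0.14, adjusted p = 2.49e-06). DUSP4 gave -0.79 (SE 0.11, adjusted p = 4.5e-05), DUSP6 -0.80 (SE 0.14, adjusted p = 0.000325), ETV4 -0.78 (SE 0.14, adjusted p = 0.000373) and PHLDA1 -0.68 (SE 0.09, adjusted p = 3.25e-05), all lower in E545K cells. The DUSP6 call was lost under quantile normalization (adjusted p = 0.0634). The relative log2 changes of these 5 genes were 1.68, -0.56, -0.57, -0.55 and -0.45. SPRED1 gave -0.44 (SE 0.15, adjusted p = 0.0272), relative -0.21, a call that was lost under each of the 3 other scalings and without any of 5 single libraries (adjusted p = 0.0526 to 0.237). The H1047R response differed in 4 genes, 2 higher and 2 lower, when 50.9% were called (10.4% higher and 40.5% lower). DUSP5 again fell less than in WT cells, by 2.40 (SE 0.14, adjusted p = 4.66e-08), relative 2.68, and SPRED2 by 0.53 (SE 0.13, adjusted p = 0.00376), relative 0.80, a call lost on the TPM scale (adjusted p = 0.0564). SPRY2 and SPRED1 gave -0.36 (SE 0.11, adjusted p = 0.0114) and -0.45 (SE 0.15, adjusted p = 0.0215), relative -0.08 and -0.18, and both calls were lost with median-centring (adjusted p = 0.911 and 0.523). With that scaling 2 genes were higher and 4 lower in E545K cells, with 18.7% and 20.7% of all genes, and 5 were higher and 0 lower in H1047R cells, with 25.8% and 18.9%. Under quantile normalization the counts were 1 and 3 in E545K cells, with 19.4% of all genes higher and 22.6% lower, and 5 and 1 in H1047R cells, with 20.9% higher and 22.5% lower.

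Erlotinib was added to palbociclib in the mutant lines alone. The hours of the groups with palbociclib alone are not given, so erlotinib cannot be told apart from a possible difference in hours. PHLDA1 rose in E545K cells, SPRY2 fell and ETV5 rose in the same line, and DUSP5 rose in H1047R cells. PHLDA1 had 98.0 and 98.5 FPKM with both drugs, against 73.2 and 71.5 FPKM with palbociclib alone, in E545K cells. In H1047R cells it had 320.0 and 321 FPKM with both drugs, against 291 and 297 FPKM with palbociclib alone. In neither line did the libraries overlap, and the H1047R libraries lay above the E545K libraries throughout. The log2 change was 0.44 (SE 0.04, adjusted p = 0.000736) in E545K cells and 0.12 (SE 0.04, adjusted p = 0.0964) in H1047R cells. In E545K cells 2 of 10 genes rose and 1 fell, when 16.2% of all genes were called (7.10% higher and 9.11% lower). In H1047R cells 1 rose and 0 fell, when 9.36% were called (3.01% higher and 6.35% lower). After median-centring the counts were 2 and 1 in E545K cells and 2 and 0 in H1047R cells, with 7.31% and 4.73% of all genes higher and 8.60% and 4.57% lower. On the TPM scale they were 2 and 1 in E545K cells, with 6.15% of all genes higher and 10.4% lower, and 1 and 1 in H1047R cells, with 2.58% higher and 10.0% lower. Palbociclib alone was in both tables, and some levels differed between them. PHLDA1 had 147 FPKM in E545K cells and 184 FPKM in H1047R cells in the first table, against 72.35 and 294 FPKM in the second. DUSP4 in E545K cells had 12.9 against 6.19 FPKM, and ETV5 in H1047R cells had 14.3 against 22.3 FPKM. SPRY2 in E545K cells had 14.45 FPKM in both. The tables were fitted apart, so these differences were not tested.

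**Figure D4:**
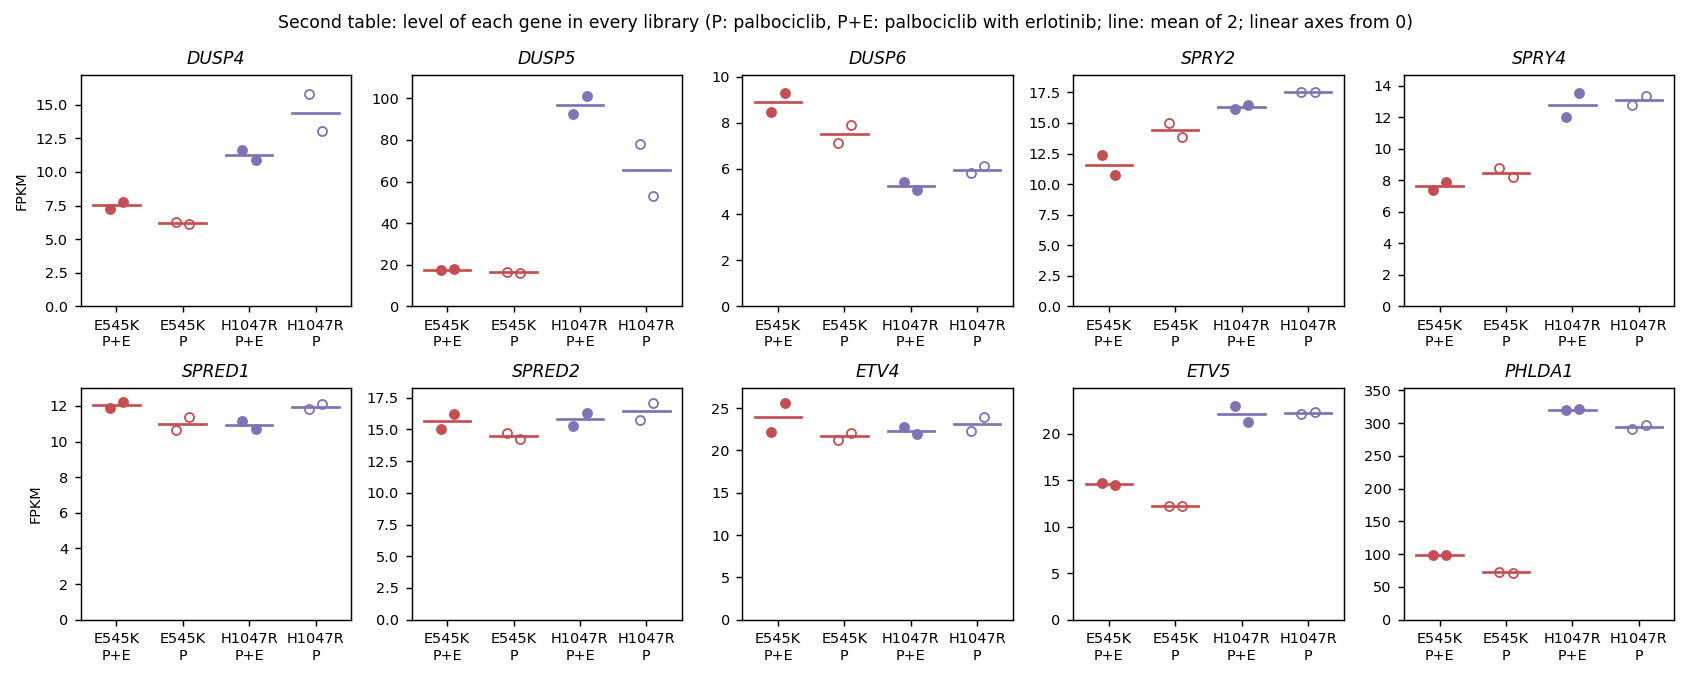
Level of each gene in FPKM (linear axes from 0) in every library of the second table, with filled points for palbociclib with erlotinib (P+E), open points for palbociclib alone (P) and lines for the mean of 2. PHLDA1, DUSP5, ETV5 and SPRY4 separate the lines more than the treatments, and the libraries of the lines do not overlap for DUSP4, DUSP6 and SPRY2 either. They overlap for SPRED1, SPRED2 and ETV4. The open points of DUSP5 in H1047R cells lie far apart, at 77.9 and 53.1 FPKM.

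The other calls with erlotinib were less firm. SPRY2 had 12.3 and 10.8 FPKM with both drugs, against 15.0 and 13.9 FPKM with palbociclib alone, in E545K cells, a change of -0.30 (SE 0.07, adjusted p = 0.0293). ETV5 had 14.7 and 14.5 FPKM with both drugs, against 12.2 and 12.2 FPKM with palbociclib alone, in the same line, a change of 0.24 (SE 0.06, adjusted p = 0.0282). COL3A1, of the markers of other cell types, stood at 0.385 FPKM with both drugs, against 4.07 FPKM with palbociclib alone, in E545K cells, and at 0.265 FPKM against 1.89 FPKM in H1047R cells, and its part was not tested. The libraries of SPRY2 and of ETV5 did not overlap between treatments, but leaving out single libraries ended the ETV5 call in all 4 cases (adjusted p = 0.136 to 0.16) and the SPRY2 call in 3 of 4 (adjusted p = 0.0849 to 0.199). DUSP5 had 92.3 and 101 FPKM with both drugs, against 77.9 and 53.1 FPKM with palbociclib alone, in H1047R cells, a change of 0.58 (SE 0.15, adjusted p = 0.0442). Leaving out 1 palbociclib library at a time moved this change to 0.85 without the first and 0.31 without the second, and the call was lost without either library of both drugs (adjusted p = 0.134 and 0.251). It was also lost without the filter on low values (adjusted p = 0.106) and when only the H1047R groups were fitted (adjusted p = 0.185). DUSP6 did not pass in either line, at 0.22 in E545K cells and -0.15 in H1047R cells (adjusted p = 0.105 and 0.246), and neither did SPRY4, at -0.14 and -0.03 (adjusted p = 0.28 and 0.836). SPRED1, SPRED2 and ETV4 did not pass either, at 0.12, 0.11 and 0.13 in E545K cells and -0.12, -0.05 and -0.05 in H1047R cells.

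The response of H1047R cells minus that of E545K cells was called for PHLDA1 alone, 0 genes higher and 1 lower, when 2.17% of all genes were called (0.899% higher and 1.27% lower). It was -0.31 (SE 0.06, adjusted p = 0.04), and without the filter on low values (adjusted p = 0.0518), with median-centring (adjusted p = 0.065) and without either library of E545K cells with palbociclib alone (adjusted p = 0.123 and 0.172) or any library with both drugs (adjusted p = 0.161 to 0.197) the call was lost. DUSP4 had 7.26 and 7.75 FPKM with both drugs, against 6.25 and 6.12 FPKM with palbociclib alone, in E545K cells. In H1047R cells it had 11.7 and 10.9 FPKM with both drugs, against 15.8 and 13.1 FPKM with palbociclib alone. The libraries did not overlap within either line, but neither change passed, at 0.24 (SE 0.09, adjusted p = 0.112) in E545K cells and -0.33 (SE 0.09, adjusted p = 0.0602) in H1047R cells. The difference in response was -0.57 (SE 0.13, adjusted p = 0.0686), which did not pass although only 1.64% of all genes had lower values. It passed on the TPM scale (adjusted p = 0.0496) and without either H1047R library with palbociclib alone (adjusted p = 0.0199 and 0.00538).

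**Figure D5:**
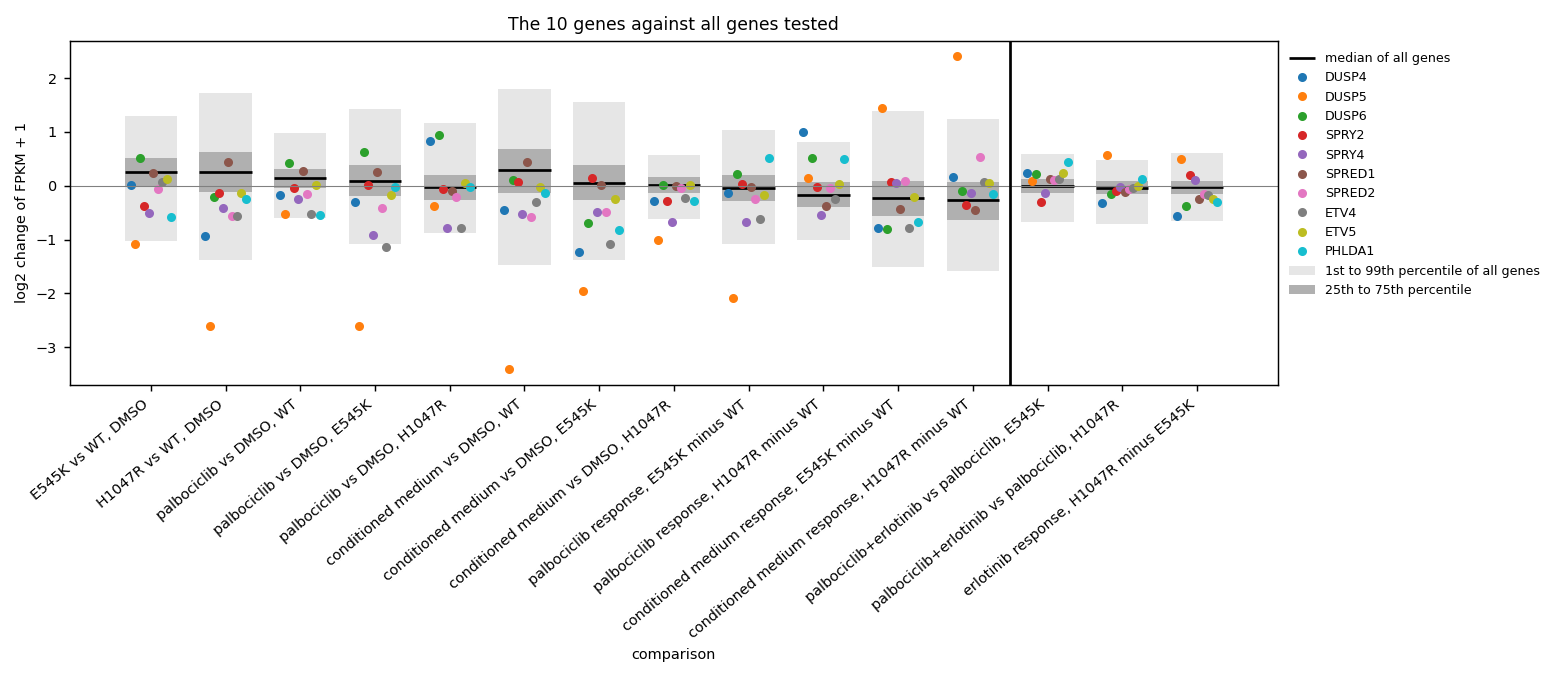
Log2 change of each of the 10 genes (points) in all 15 comparisons, over the 1st to 99th percentile (light), the 25th to 75th percentile (dark) and the median (line) of all genes tested. DUSP5 falls outside the light band in most comparisons of the first table, and the median of all genes is more than 0.1 from 0 in 7 comparisons, all of which use WT cells in DMSO.

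The other genes of the pathway were counted in the same fits. The list of 21 cascade genes from SOS1 to MAPK3 and the list of 20 further ERK output genes were chosen with earlier results of these data known. With palbociclib 3 cascade genes rose and 5 fell in E545K cells, 2 rose and 9 fell in H1047R cells, and 2 rose and 1 fell in WT cells. Of all genes 32.9%, 19.5% and 27.2% rose and 19.3%, 19.8% and 6.77% fell. The median log2 change of the cascade genes was -0.07, -0.12 and 0.04 in these lines, where that of all genes was 0.08, -0.03 and 0.14. RASA1, a GTPase activating protein of RAS, changed by -0.83 in H1047R cells (SE 0.17, adjusted p = 0.00137), and the adaptor gene SHC1 by -0.60 in E545K cells (SE 0.08, adjusted p = 1.23e-05). With conditioned medium 2 rose and 6 fell in E545K cells, 0 rose and 0 fell in H1047R cells, and 5 rose and 8 fell in WT cells, where 32.4%, 8.65% and 51.9% of all genes rose and 24.9%, 5.97% and 18.6% fell.

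Of the 20 further output genes, palbociclib raised 3 and lowered 11 in E545K cells, raised 12 and lowered 1 in H1047R cells, and raised 5 and lowered 5 in WT cells. Their median log2 change was -0.33 in E545K cells, 0.34 in H1047R cells and 0.03 in WT cells, where that of all genes was 0.08, -0.03 and 0.14. Of all genes 32.9%, 19.5% and 27.2% rose and 19.3%, 19.8% and 6.77% fell in these lines. The immediate early gene FOS changed by -1.11 in E545K cells (SE 0.13, adjusted p = 5.81e-06), and EMP1, a membrane protein gene, by 1.34 in H1047R cells (SE 0.08, adjusted p = 2.99e-08). With conditioned medium 4 rose and 12 fell in E545K cells, 2 rose and 12 fell in H1047R cells, and 4 rose and 12 fell in WT cells, with medians of -0.38, -0.37 and -0.55, where those of all genes were 0.05, 0.01 and 0.29. Of all genes 32.4%, 8.65% and 51.9% rose and 24.9%, 5.97% and 18.6% fell. IER3, an early response gene, stood at 60.7 FPKM in WT cells in conditioned medium, against 264 FPKM in DMSO, a change of -2.10 (SE 0.11, adjusted p = 5.06e-10). In DMSO 7 rose and 7 fell in E545K cells against WT cells, and 4 rose and 12 fell in H1047R cells, where 48.4% and 49.9% of all genes rose and 10.4% and 17.5% fell. AREG, which encodes the EGF receptor ligand amphiregulin, stood at 119 FPKM in H1047R cells and 458 FPKM in WT cells, a change of -1.94 (SE 0.10, adjusted p = 1.12e-09). With erlotinib 4 rose and 1 fell in E545K cells, and 3 rose and 1 fell in H1047R cells, where 7.10% and 3.01% of all genes rose and 9.11% and 6.35% fell. The counts of these lists were not recomputed under the other scalings.

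Relatives of the 10 genes were counted as well. Of 7 other MAP kinase phosphatase genes, palbociclib raised 1 and lowered 3 in E545K cells, raised 3 and lowered 1 in H1047R cells, and raised 1 and lowered 1 in WT cells, with medians of -0.21, 0.23 and -0.08 beside those of all genes, 0.08, -0.03 and 0.14. Palbociclib raised 32.9%, 19.5% and 27.2% of all genes in these lines and lowered 19.3%, 19.8% and 6.77%. DUSP10, which acts on JNK and p38, stood at 3.99 FPKM in WT cells in conditioned medium, against 16.2 FPKM in DMSO (log2 change -1.79, SE 0.10, adjusted p = 1.72e-09). In that comparison 3 of the 7 genes rose and 4 fell, when 51.9% of all genes rose and 18.6% fell. SPRY1 was the only one of 3 further Sprouty and SPRED genes that was tested, and it was lower than in WT cells in both mutant lines in DMSO, by -0.44 in E545K cells and -0.49 in H1047R cells (adjusted p = 0.00106 and 0.000315). Among 8 other ETS genes, ETS1 rose with palbociclib in both mutant lines, by 0.76 in E545K cells and 1.18 in H1047R cells (SE 0.11 each, adjusted p = 4.59e-05 and 1.99e-06), while ETV4 fell there. With palbociclib 3 of these 8 genes rose and 1 fell in E545K cells, and 2 rose and 2 fell in H1047R cells. PHLDA2, an imprinted relative of PHLDA1, was lower in DMSO in both mutant lines than in WT cells, by -0.98 in E545K cells and -1.23 in H1047R cells (SE 0.16 each, adjusted p = 0.000122 and 9.35e-06). Of the 2 other PHLDA genes, 1 was higher and 1 lower in E545K cells, and 0 were higher and 2 lower in H1047R cells. In these comparisons in DMSO 48.4% and 49.9% of all genes were higher and 10.4% and 17.5% lower.

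Across the 9 group means of the first table, each gene was set beside the 4427 genes tested in both tables whose means spanned at least 1 on the log2 scale. The points share 2 libraries each and the same 3 lines, and the correlations are a description. DUSP5 ran closest to PIM1, a kinase gene (Pearson r = 0.997), and 83 of the 4427 genes passed 0.95 with it. ETV4 ran closest to DEPDC7 (0.978), SPRED2 to LIN7B (0.976), ETV5 to SEMA6B (0.976), SPRY4 to ZNF460 (0.974) and SPRED1 to IFTAP (0.952). PHLDA1 ran closest to NQO1 (0.942), DUSP4 to ERRFI1 (0.933), which encodes an inhibitor of the EGF receptor, DUSP6 to PLSCR3 (0.920) and SPRY2 to AGMO (0.850). Within the set SPRY4 and ETV4 were each other's closest partner (0.83), as were DUSP5 and SPRED2 (0.89). The correlation of SPRED1 with DUSP5 was negative (-0.82), and that of DUSP6 with SPRY4 was weaker (-0.44).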

How the data were processed

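Gene expression was measured by RNA sequencing in 26 libraries, and the authors deposited FPKM values per gene in 2 tables. Per the submitters' processing notes, the tools were RSEM 1.3.1, DESeq2 1.4.5, HISAT2 2.1.0 and Bowtie2 2.3.4.3, with the GRCh38 build, and their roles and the strand setting are not given in the sources used here. The deposited FPKM values have 2 decimals and no counts beside them, so read depth is unknown, no count test was run and no counting interval is given.

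From these values log2(FPKM + 1) was computed in R 4.3.3, for genes with at least 1 FPKM in at least 2 libraries of a table. Each table was fitted on its own with limma 3.58.1, with 1 coefficient per group, an intensity trend in the variance, two-sided tests and Benjamini-Hochberg adjustment over all genes of the table, called at an adjusted p under 0.05. Residual degrees of freedom were 9 and 4. The fits were tested on simulated data. All contrasts against WT or DMSO share those libraries. The alternatives were a pseudocount of 0.1, no filter, quantile normalization, median-centring, the TPM scale, a replicate block, a fit of the compared groups alone and leaving out each library. The comparison of lines within treatments was added after seeing the data.

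The 10 genes and the pathway lists were chosen with earlier results of these data known. All 10 genes were tested in every comparison, and those that passed are named. List genes are named where they were called and had the largest change of their list in a comparison, and each likeness is the gene with the highest correlation. Sequences are from RefSeq, GRCh38.p14.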

Additional observations from a re-analysis of the deposited data

Results flagged for a closer look

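The tests of a difference in response between lines passed for 19 values of the 10 genes, on the log2 scale and with limma. In the response to palbociclib, E545K minus WT, DUSP5 gave -2.08, SPRY4 -0.67, ETV4 -0.61 and PHLDA1 0.52. In the response to palbociclib, H1047R minus WT, DUSP4 gave 1.01, DUSP6 0.52, SPRY4 -0.54 and PHLDA1 0.50. DUSP4 fell with palbociclib in E545K cells and rose in H1047R cells, and that pair of lines was not tested against each other.

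In the response to conditioned medium, E545K minus WT, DUSP4 gave -0.79, DUSP5 1.45, DUSP6 -0.80, SPRED1 -0.44, ETV4 -0.78 and PHLDA1 -0.68. In the response to conditioned medium, H1047R minus WT, DUSP5 gave 2.40, SPRY2 -0.36, SPRED1 -0.45 and SPRED2 0.53. DUSP5 ended at a like level in WT and H1047R cells in conditioned medium, where libraries of the lines overlapped, and its values in DMSO differed widely. The response to erlotinib, H1047R minus E545K, was -0.31 for PHLDA1.

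All 18 values against WT use the same WT libraries in DMSO, which held the largest share of ribosomal protein transcripts (24.9% and 25.1%). Its part in these differences was not tested.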

How the results depend on the processing

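Of the 70 calls, 454 of 490 values under other settings and 311 of 356 with 1 library left out kept direction and call. The rest, 36 and 45, lost the call, and 0 reversed. Of the results not called, 39 gained a call under other settings and 10 with a library left out. Of the 70 calls, 70 were kept with a pseudocount of 0.1, 67 without the filter, 60 under quantile normalization, 62 with median-centring, 65 on the TPM scale, 68 with the replicate block and 62 in fits of the compared groups alone. Another 44 and 33 uncalled values changed sign without a call.

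Values that turned direction were those of DUSP4 in E545K against WT cells (-0.22 under quantile normalization and -0.28 with median-centring), DUSP6 with conditioned medium in WT cells (-0.38 under quantile normalization), SPRY2 in the same comparison (-0.28 with median-centring) and DUSP6 in the conditioned medium response of H1047R minus WT cells (0.43 under quantile normalization). Comparing lines in palbociclib in place of DMSO turned ETV4 in E545K cells (-0.55) and DUSP4, DUSP6 and PHLDA1 in H1047R cells (0.076, 0.31 and 0.25). Comparing them in conditioned medium turned DUSP4, DUSP5, DUSP6 and ETV4 in E545K cells (-0.77, 0.37, -0.28 and -0.72) and SPRED1 in H1047R cells (-0.0077), and left 4270 and 1056 of all genes called for E545K and H1047R. The cause was not tested.

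Fits of the compared groups alone called 480 genes for palbociclib in H1047R cells, 605 for conditioned medium in H1047R cells (2 of the 10 genes), 288 for the palbociclib response of H1047R minus WT cells (1 of the 10), 3583 for erlotinib in E545K cells and 115 for erlotinib in H1047R cells (0 of the 10). Quantile normalization called 1851 for the palbociclib response of H1047R minus WT cells. Without the filter 686 genes were called for erlotinib in H1047R cells and 112 for the erlotinib response, with 0 of the 10 in both. For erlotinib in H1047R cells 2 of the 10 were called with median-centring and 2 on the TPM scale, and for the erlotinib response 0 and 2.

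Libraries with the same number were not treated as pairs, because the correlation of same-numbered deviations was not over 0.1 in every pair of groups. It lay between -0.56 and 0.55 in the first table, over 0.1 in 15 of 36 pairs and under -0.1 in 6, and between -0.1 and 0.026 in the second. Of 18 libraries in the first table, 14 correlated best with their own number, a hint from the data and not from the design. The replicate block ended the calls of DUSP5 with erlotinib in H1047R cells (adjusted p = 0.0574) and of PHLDA1 in the erlotinib response (adjusted p = 0.0873), leaving 0 of the 10 genes in each, and called 141 genes for that response. It added 4 calls, all of SPRED1: E545K against WT cells (adjusted p = 0.0367), palbociclib in WT and in E545K cells (adjusted p = 0.0269 and 0.0281) and the palbociclib response of H1047R minus WT cells (adjusted p = 0.0452).

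Leaving out single libraries called 2616 to 2725 genes for palbociclib in WT cells (3 to 4 of the 10), 2732 to 6780 for palbociclib in H1047R cells, 686 to 1518 for conditioned medium in H1047R cells (3 of the 10 each time) and 1268 to 5562 for the palbociclib response of H1047R minus WT cells. In the second table it called 512 to 694 genes for erlotinib in E545K cells (1 to 2 of the 10), 201 to 3795 for erlotinib in H1047R cells (0 to 2 of the 10) and 34 to 2079 for the erlotinib response (0 to 4 of the 10). The highest counts of the last 2 came without the first H1047R library with palbociclib alone, and the 5562 without the first palbociclib library of the same line.

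Depth is unknown, and 2 libraries per group limit all comparisons, those of the second table most.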
